A study of Mus musculus with 18 samples.

Results

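Targets of the tumour suppressor p53 and growth arrest genes were followed in mouse embryos in which the homeobox gene Hoxb13 was raised, to ask whether it goes with an arrest or death response. The 10 members were Cdkn1a, Mdm2, Ccng1, Trp53inp1, Rprm, Sesn2, Bbc3, Bax, Zmat3 and Phlda3. They were taken by gene symbol, with no use of their values, and all 10 were found among the 55138 genes of the authors' FPKM table, whose values are fragments per kilobase of transcript scaled to sequencing depth.

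RNA came from embryos dissected to remove the head, in 18 libraries that form 6 groups of 3. Embryonic day 9.5 (E9.5) had wild type and homozygous HoxB Del(i9-13), a mutation of the HoxB cluster. E10.5 had wild type and 3 homozygous genotypes, namely Del(i9-13), the compound Del(i9-13):Hoxb13hd, and Hoxb13hd. The mutations were carried by the whole embryo and the wild types were littermates, per the labels, which give neither the strain nor whether a replicate is 1 embryo or a pool, so that p-values measure only the spread between these libraries. The labels explain neither hd nor its effect on the Hoxb13 protein. RNA was poly(A)-enriched for all E9.5 libraries and ribo-depleted for all E10.5 libraries, so stage and library type cannot be told apart.

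p53, encoded by Trp53, is a transcription factor that is kept low in unstressed cells by the ubiquitin ligase Mdm2 and accumulates after DNA damage and other stress. It then switches on genes that halt the cell cycle, such as Cdkn1a, and genes that open the mitochondrial route to cell death, such as Bbc3 and Bax. Embryos are sensitive to it: loss of Mdm2 kills the mouse embryo early, and removal of p53 rescues it.

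Libraries held 19.3 to 35.9 M counts in all. Among markers of other tissues, the 6 of head and forebrain summed to 13.4 to 38.9 CPM (read counts relative to a TMM-scaled library total). In this list Otx2 and Six3, transcription factors of the anterior head, reached at most 0.159 CPM in any library, and most of the sum was Lhx2 (5.29 to 28.7 CPM) and Emx2 (4.11 to 10.2 CPM), which limb bud and urogenital tissue are known to express as well. The trunk Hox gene Hoxc9 was at 9.37 to 19.2 CPM. Heart markers varied between 10.8 and 1303 CPM in sum and markers of liver bud and visceral endoderm between 18.6 and 1232 CPM. Xist, a sex-linked gene, was below 1.3 CPM in all 3 E9.5 Del(i9-13) libraries and in replicate 1 of the E9.5 wild type. It was at 1474 and 1556 CPM in replicates 2 and 3 of that wild type, and was mixed within each E10.5 group. At E9.5, sex and genotype thus cannot be fully told apart. Hoxb13 was between 0 and 1.13 CPM in every library without the deletion. It was at 37.7 to 45.1 CPM in E9.5 Del(i9-13), at 5.89 to 12.2 CPM in E10.5 Del(i9-13) and at 9.90 to 11.98 CPM in Del(i9-13):Hoxb13hd, so that both E10.5 groups with the deletion overlapped in Hoxb13.

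The sequence that p53 binds is made of half-sites of 10 bases, and the promoters of the members were searched for it because the list is defined by this factor. RefSeq promoter windows (GRCm38.p6, from 250 bases before to 50 after a gene's start, 300 bases) were at hand for 8 of the 10 members, as 11 windows. Trp53inp1 and Zmat3 had none in the table. The p53 half-site consensus was searched with no mismatch allowed. It reads the same on both strands, so a match counts once. Cdkn1a, Mdm2, Ccng1 and Bax held a match, against 8.36% of all 32851 windows and 9.55% of 27025 genes. A match is a description of the letters and not evidence of binding. The windows below show 1 half-site each in capitals with 25 bases on each side, 5′ to 3′ on the gene's strand. They are at chr17:29090903-29090962 (plus strand, 51 bases before the upstream start of Cdkn1a, which had 2 windows), chr10:117710910-117710969 (minus strand, 186 before Mdm2), chr11:40755437-40755496 (minus strand, 185 before Ccng1) and chr7:45467065-45467124 (minus strand, 201 before Bax).
Cdkn1a: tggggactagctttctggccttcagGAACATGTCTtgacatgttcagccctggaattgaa
Mdm2: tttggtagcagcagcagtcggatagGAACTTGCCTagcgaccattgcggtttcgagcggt
Ccng1: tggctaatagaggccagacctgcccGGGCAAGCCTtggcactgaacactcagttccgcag
Bax: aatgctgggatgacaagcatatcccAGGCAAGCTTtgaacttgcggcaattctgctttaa

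A second match lay 73 bases before the same start of Cdkn1a, within the stretch printed above and left there in lower case. The other Cdkn1a window, at the downstream start (chr17:29093519-29093818), held none. The windows of Rprm, Sesn2, Phlda3 and the 3 windows of Bbc3 held none either. Rprm is the member that differed most below, and the 100 bases before its start, at chr2:54085553-54085652 (minus strand), are given without capitals for that reason.
Rprm: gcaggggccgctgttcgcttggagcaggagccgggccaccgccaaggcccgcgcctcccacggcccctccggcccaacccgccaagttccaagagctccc

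All 10 members were expressed in every library. Ordered by mean FPKM in E9.5 wild type, Bax (84.9 ± 6.96, SD, n = 3) stood far above Mdm2 (16.0 ± 0.76), Ccng1 (11.4 ± 1.43) and Rprm (8.44 ± 0.71). Phlda3, Zmat3, Cdkn1a and Sesn2 followed at 7.23 to 5.83 FPKM, and from Rprm down to Sesn2 each gene's libraries overlapped those of the next. Bbc3 (3.71 ± 0.59) and Trp53inp1 (2.56 ± 0.29) were lowest and overlapped neither each other nor Sesn2. In E10.5 wild type the order was Bax (46.9 ± 2.38), Ccng1 (16.7 ± 0.51), Mdm2 (12.7 ± 1.11), Trp53inp1 (7.57 ± 0.94), Phlda3 (6.26 ± 0.44), Rprm (4.99 ± 0.81), Zmat3 (3.15 ± 0.56), Sesn2 (2.88 ± 0.18), Bbc3 (2.11 ± 0.04) and Cdkn1a (1.86 ± 0.15). There, Zmat3 and Sesn2 were the neighbours whose libraries overlapped. Cdkn1a covered 4.83 to 7.80 FPKM over the 6 E9.5 libraries and 1.503 to 2.85 over the 12 E10.5 libraries, and Trp53inp1 2.18 to 2.81 and 4.12 to 8.59 FPKM, with library type differing as well as stage.

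**Figure D1:**
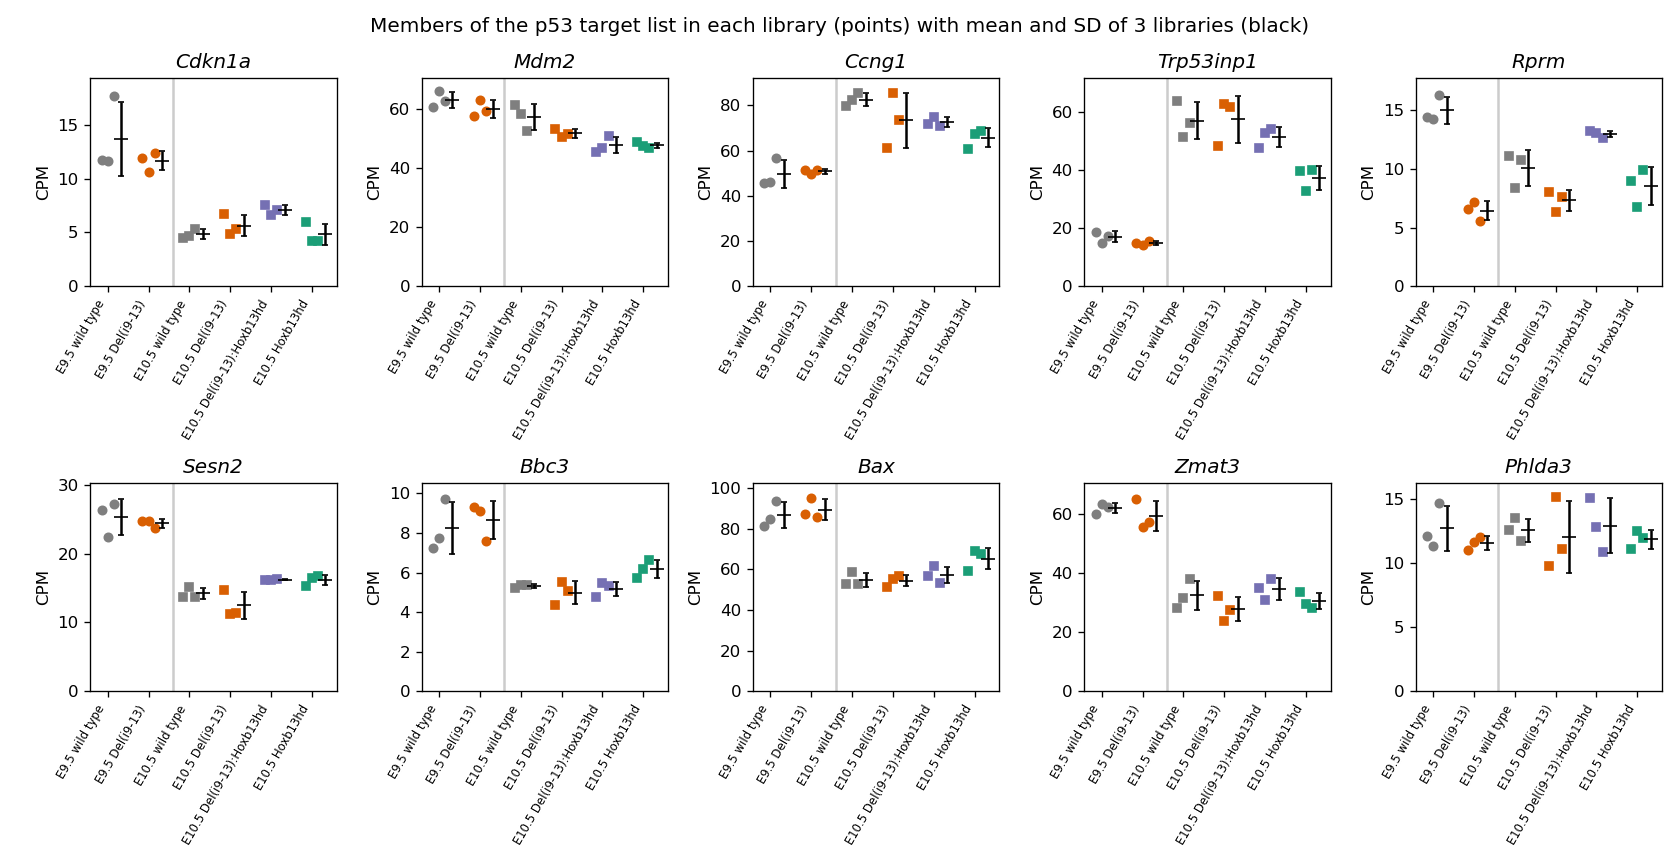
Level of each member in CPM (vertical axis, from 0) in each of the 18 libraries, by group, with circles for E9.5, squares for E10.5 and the mean and SD of 3 libraries in black. Rprm is low in the 3 E9.5 Del(i9-13) libraries (5.58 to 7.17 CPM) and Trp53inp1 in the 3 Hoxb13hd libraries (32.7 to 40.0 CPM).

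The first question was whether the embryos in which Hoxb13 was raised most, E9.5 Del(i9-13), carried higher levels of these genes. No member was higher and 1 of 10, Rprm, was lower at an adjusted p of 0.05 (edgeR quasi-likelihood test, Benjamini-Hochberg over all genes tested; such genes are said to be called), where 0.362% of the 16041 genes tested were called. Rprm (ENSMUSG00000075334, chromosome 2, 54084093 to 54085552, minus strand, mm10) is a protein-coding gene for Reprimo, a p53-inducible glycoprotein linked to arrest in the G2 phase. It measured 14.4, 14.2 and 16.3 CPM in the wild type libraries and 6.56, 7.17 and 5.58 CPM in the Del(i9-13) libraries. Every Del(i9-13) library lay well below every wild type library. The fitted log2 fold change was -1.22 (SE 0.12, 95% interval -1.496 to -0.943, adjusted p = 0.0051), and the call was kept with Xist as a covariate (log2 -1.16, adjusted p = 0.047). The covariate cannot fully separate sex from genotype, since replicate 1 alone of the wild type was low in Xist (1.26 CPM). The call was kept without each library in turn, and was lost in a limma fit of log2(FPKM + 0.1) with no filter on low values (log2 -1.19, adjusted p = 0.116). That limma fit called 2 of 27392 genes.

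Marker sums moved with Rprm at E9.5. The 10 neuron markers, all of which passed the filter on low counts, summed to 108 to 135 CPM in wild type and 55.5 to 86.7 CPM in Del(i9-13). All 10 had a negative log2 value, with a median of -0.93. All 10 had an unadjusted p under 0.05, beside 11.7% of all genes, and 0 of 10 were called. Heart markers (15 to 49.8 against 10.8 to 12.1 CPM) and head and forebrain markers (20.4 to 24.6 against 13.4 to 19.8 CPM) were lower in Del(i9-13) as well. Markers of liver bud and visceral endoderm went the other way, at 18.6 to 88.2 CPM in wild type and 84.4 to 808 CPM in Del(i9-13), which overlapped narrowly, with 5 of 5 positive, a median log2 of 3.44 and 0 called. Their part in the difference of Rprm was not tested. In bulk RNA of headless embryos, fewer cells of a type and less RNA per cell cannot be told apart.

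The other arrest genes were not called at E9.5. Cdkn1a (ENSMUSG00000023067, chromosome 17, 29090979 to 29100727, plus strand), the cyclin-dependent kinase inhibitor p21, was at 11.7, 11.65 and 17.7 CPM in E9.5 wild type and 11.9, 10.65 and 12.3 CPM in Del(i9-13). The groups overlapped, and wild type replicate 3 was the highest library. Its log2 fold change was -0.23 (95% interval -0.62 to 0.15, adjusted p = 0.62). Ccng1, the p53-induced cyclin G1, lay at 0.04 (-0.15 to 0.23), and Sesn2, a sestrin that restrains the growth kinase mTORC1, at -0.05 (-0.26 to 0.15).

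The death genes likewise overlapped between the groups at E9.5. Bbc3, which encodes the BH3-only protein Puma, had a log2 fold change of 0.07 (95% interval -0.26 to 0.40). Bax, the pore-forming effector of the mitochondrial route, had 0.05 (-0.11 to 0.20). Trp53inp1, a p53-induced nuclear protein that promotes cell death, was at -0.19 (-0.43 to 0.04). Mdm2, both target and inhibitor of p53, was at -0.07 (-0.20 to 0.06). Zmat3, an RNA-binding zinc finger protein, was at -0.06 (-0.21 to 0.09) and Phlda3, an inhibitor of the kinase Akt, at -0.13 (-0.39 to 0.13). Apart from Rprm, the intervals of the 9 members thus stayed between -0.62 and 0.40. Of the members Rprm alone had an unadjusted p under 0.05, beside 11.7% of all genes. The median over the 10 members was -0.07, against 0.00 over all genes tested.

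**Figure D2:**
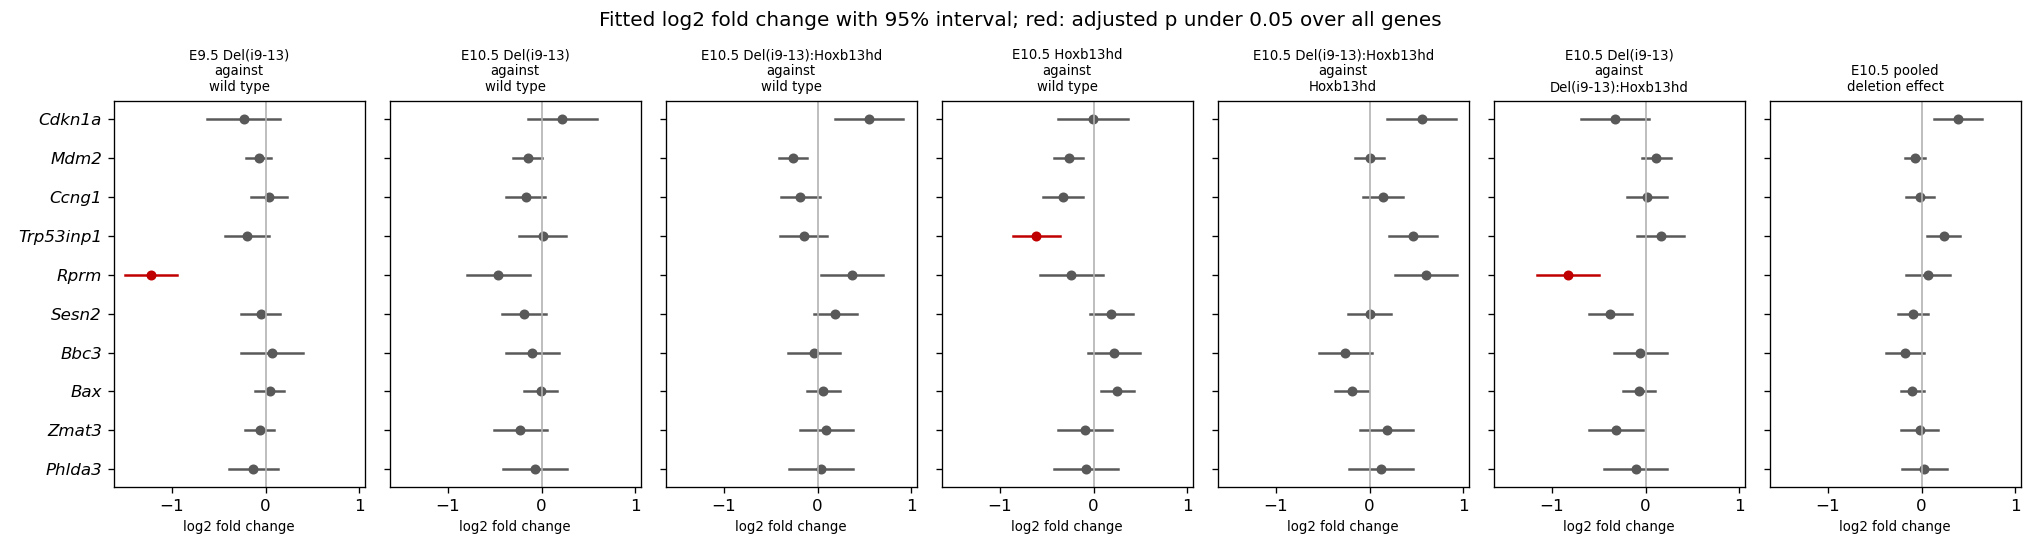
Fitted log2 fold change (horizontal axis) of each member with its 95% interval in 7 comparisons, with calls over all genes in red. Rprm in E9.5 Del(i9-13) against wild type (-1.22), Trp53inp1 in Hoxb13hd against wild type (-0.61) and Rprm in Del(i9-13) against Del(i9-13):Hoxb13hd (-0.83) are the 3 values in red.

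A day later, in E10.5 Del(i9-13) against wild type, 0 of 10 members were called by edgeR, DESeq2 or limma, where edgeR called 0.488% of 17202 genes. At an unadjusted p under 0.05, 0 members were higher and 1, Rprm, was lower, beside 9.13% of all genes in either direction. In Del(i9-13):Hoxb13hd against wild type, 0 of 10 were called by edgeR, with 0.401% of all genes called. There 2 members were higher and 1 was lower at an unadjusted p under 0.05, beside 12.5% of all genes. Of the members limma called 0 and DESeq2 called 1, Mdm2, where DESeq2 called 316 of 14814 genes. Both comparisons, and that of Hoxb13hd, share the wild type libraries.

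Cdkn1a, the member most directly tied to arrest, measured 4.44, 4.70 and 5.35 CPM in E10.5 wild type, 6.73, 4.89 and 5.28 CPM in Del(i9-13), 7.56, 6.59 and 7.08 CPM in Del(i9-13):Hoxb13hd, and 5.97, 4.21 and 4.23 CPM in Hoxb13hd. The Del(i9-13):Hoxb13hd libraries were above all wild type and all Hoxb13hd libraries, whereas those of Del(i9-13) overlapped with wild type. Against wild type its log2 fold change was 0.22 in Del(i9-13) (95% interval -0.15 to 0.59, adjusted p = 0.75) and 0.55 for Del(i9-13):Hoxb13hd (0.18 to 0.91, adjusted p = 0.21). Neither value passed the test. At about 80 to 171 counts per E10.5 library, Cdkn1a was among the least abundant members.

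Mdm2 (ENSMUSG00000020184, chromosome 10, 117688875 to 117710758, minus strand) is another common gauge of p53 activity. It was at 61.2, 58.1 and 52.5 CPM in E10.5 wild type, 53.3, 50.3 and 51.4 CPM in Del(i9-13), 45.5, 46.8 and 50.7 CPM in Del(i9-13):Hoxb13hd, and 48.6, 47.5 and 46.8 CPM in Hoxb13hd. The wild type libraries lay above those of both groups that carry hd. The log2 fold change against wild type was -0.15 in Del(i9-13) (adjusted p = 0.55), -0.26 in Del(i9-13):Hoxb13hd (adjusted p = 0.15) and -0.27 in Hoxb13hd (adjusted p = 0.061). DESeq2 called Mdm2 lower in both groups that carry hd, and edgeR in neither.

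Pooling both groups with the deletion against both without it set 6 libraries with raised Hoxb13 against 6 without. Here 0 of 10 members were called by edgeR, DESeq2 or limma, and 0.5% of all genes were called by edgeR. At an unadjusted p under 0.05, which 13.6% of all genes passed, 2 members were higher, Cdkn1a at log2 0.39 (95% interval 0.13 to 0.65, adjusted p = 0.18) and Trp53inp1 at 0.24 (0.06 to 0.41, adjusted p = 0.23). Trp53inp1 was not above wild type in either group with the deletion, at log2 0.01 in Del(i9-13) and -0.15 in Del(i9-13):Hoxb13hd. Its low libraries were those of Hoxb13hd (32.7 to 40.0 CPM), on the side without the deletion. The exact two-sided permutation test of mean log2(CPM + 0.1), 6 libraries against 6 with a smallest possible p of 0.002165, gave an unadjusted p of 0.0173 for Cdkn1a and 0.175 for Trp53inp1, among 10 such tests. The death genes had negative values that did not pass in edgeR, with Bbc3 at -0.18 (-0.38 to 0.02) and Bax at -0.10 (-0.22 to 0.02). For Bbc3 the exact permutation test gave an unadjusted p of 0.0411, and for Bax 0.240. Both genes were above every wild type library in Hoxb13hd, on the side without the deletion (log2 0.22 for Bbc3, 0.25 for Bax). Groups with the deletion stayed closer to wild type. There Bbc3 was at -0.10 without hd and -0.04 with it, and Bax at -0.01 and 0.06 in turn. None of these values against wild type was called by edgeR. Upper bounds of the pooled 95% intervals reached 0.65 for Cdkn1a and 0.41 or less for the other members. Head and forebrain markers summed to 33.01 to 38.9 CPM with the deletion and 21.6 to 30.6 CPM without it. Of the 3 that were tested 2 were positive and 1 negative, and Lhx2 was called higher (log2 0.50, adjusted p = 0.0087). Lhx2 was also called higher in Del(i9-13):Hoxb13hd against wild type (0.53, adjusted p = 0.044). All 10 neuron markers were positive (median log2 0.40, Nhlh2 called). Their sums in Del(i9-13) (367 to 467 CPM) and Del(i9-13):Hoxb13hd (432 to 456 CPM) overlapped with wild type (316 to 469 CPM) and lay above Hoxb13hd (181 to 287 CPM). Markers of liver bud and visceral endoderm were 5 of 5 positive (median log2 1.55, 0 called). Heart markers were 6 of 6 negative (median log2 -1.01, 0 called). The part of these markers in the values of Cdkn1a and Trp53inp1 was not tested.

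**Figure D3:**
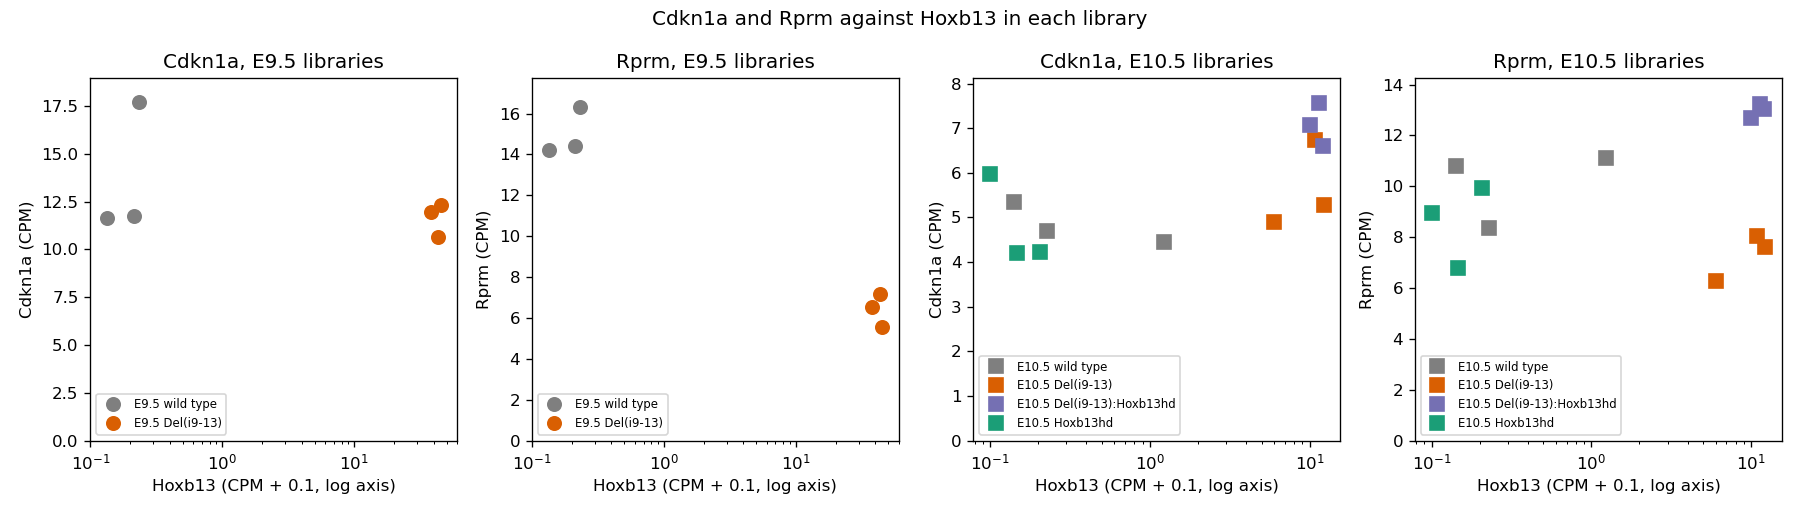
Cdkn1a and Rprm in CPM (vertical axes, from 0) against Hoxb13 in CPM plus 0.1 (horizontal log axes) in each library, by stage and group. At E10.5, Del(i9-13) and Del(i9-13):Hoxb13hd overlap in Hoxb13 (5.89 to 12.2 and 9.90 to 11.98 CPM) and are apart in Rprm (6.29 to 8.05 and 12.7 to 13.2 CPM).

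Rprm separated both groups with the deletion at E10.5. It measured 11.1, 8.35 and 10.8 CPM in wild type, 8.05, 6.29 and 7.60 CPM in Del(i9-13), 13.2, 13.0 and 12.7 CPM in Del(i9-13):Hoxb13hd, and 8.95, 6.77 and 9.93 CPM in Hoxb13hd. The Del(i9-13) libraries were below and the Del(i9-13):Hoxb13hd libraries above all wild type libraries. Between both groups with the deletion the log2 fold change was -0.83 in Del(i9-13) against Del(i9-13):Hoxb13hd (SE 0.15, 95% interval -1.16 to -0.49, adjusted p = 0.026), the single call among the 10 members, with 0.907% of all genes called. There were 0 members higher and 3 lower at an unadjusted p under 0.05, beside 16.1% of all genes. The call was lost on leaving out replicate 2 (adjusted p = 0.12) or 3 (0.095) of Del(i9-13), or replicate 1 (0.101), 2 (0.077) or 3 (0.093) of Del(i9-13):Hoxb13hd, where log2 ran from -0.72 to -0.85. Over all genes, 72, 67, 72, 84 and 58 were called in these fits in turn, against 156 with all libraries. Summed neuron markers overlapped between these groups, at 367 to 467 and 432 to 456 CPM. Heart markers (168 to 305 and 69.0 to 171 CPM) and proliferation genes (7991 to 8165 and 8155 to 8287 CPM) overlapped narrowly. So did markers of liver bud and visceral endoderm, at 259.7 to 1232 and 219.8 to 290.4 CPM, with 5 of 5 positive, a median log2 of 2.78 and 0 called. The part of these genes in the difference of Rprm was not tested.

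Against wild type, Rprm was at log2 -0.46 in Del(i9-13) (95% interval -0.79 to -0.13, adjusted p = 0.35) and 0.37 in Del(i9-13):Hoxb13hd (0.04 to 0.69, adjusted p = 0.35). An interaction term tested the difference between the deletion's effects with hd and without it. For Rprm it was 1.06 (SE 0.22, 95% interval 0.59 to 1.53, adjusted p = 0.055) and missed the threshold. A positive value means a higher deletion effect with hd than without. Of the 10 members 0 were called by edgeR, and 0.523% of all genes were. An unadjusted p under 0.05 was reached by 4 members, all higher, beside 11.7% of all genes in either direction. The 10 neuron markers were all positive in this term (median log2 0.89, 8 at an unadjusted p under 0.05, 0 called). Their part in the value of Rprm was not tested. DESeq2 called Rprm (adjusted p = 0.0012) among 287 of 17322 genes, and limma on log2(FPKM + 1) did so (adjusted p = 0.042) among 65 of 12447. It was also called by edgeR without wild type replicate 2 (log2 1.19, adjusted p = 0.029) or without Del(i9-13) replicate 1 (log2 1.15, adjusted p = 0.037). These edgeR fits called 93 of 17575 and 174 of 17497 genes in turn, against 90 with all libraries.

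The deletion effect was also compared between stages, with wild type and Del(i9-13) of both days in a single fit. Rprm had the lowest value, -0.78 (95% interval -1.21 to -0.34, adjusted p = 0.33), meaning a more negative value at E9.5 than at E10.5. None of the 10 members was called by edgeR, DESeq2 or limma, and edgeR called 0.0453% of 17670 genes. A single member was lower at an unadjusted p under 0.05, beside 6.86% of all genes. The 10 neuron markers were all negative here (median log2 -0.87, 8 at an unadjusted p under 0.05, 0 called), and their part was not tested.

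Hoxb13hd without the deletion, where Hoxb13 stayed between 0 and 0.106 CPM, served as the comparison for hd alone. Trp53inp1 (ENSMUSG00000028211, chromosome 4, 11156431 to 11174379, plus strand) was the single member of 10 called lower against wild type, where 3.01% of all genes were called. It measured 63.9, 51.3 and 56.2 CPM in wild type and 39.6, 32.7 and 40.0 CPM in Hoxb13hd. The 3 Hoxb13hd libraries lay below all other E10.5 libraries, including Del(i9-13) at 48.2, 62.7 and 61.7 CPM and Del(i9-13):Hoxb13hd at 47.6, 52.9 and 54.1 CPM. The log2 fold change was -0.61 (SE 0.12, 95% interval -0.86 to -0.36, adjusted p = 0.020). It missed the threshold without wild type replicate 1 (-0.52, adjusted p = 0.10), wild type replicate 3 (0.063), Hoxb13hd replicate 2 (0.11) or Hoxb13hd replicate 3 (0.059). Over all genes, 57, 110, 51 and 71 were called in these fits in turn, against 517 with all libraries.

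Neuron markers moved with Trp53inp1 in the Hoxb13hd libraries. The 10 markers summed to 316 to 469 CPM in wild type and 181 to 287 CPM in Hoxb13hd, and all 10 were negative with a median log2 of -0.69. Dcx, Elavl4 and Nhlh2 were called lower. Markers of liver bud and visceral endoderm were lower too, at 148 to 448 against 19.8 to 91.4 CPM, with 5 of 5 negative and 0 called. Their part in the result was not tested. DESeq2 called 3 members lower, Trp53inp1, Mdm2 and Ccng1, where it called 1194 of 14814 genes. At an unadjusted p under 0.05 in edgeR, 1 member was higher and 3 were lower, beside 20.4% of all genes. The remaining members ran, in edgeR, from -0.33 (Ccng1, adjusted p = 0.085) to 0.25 (Bax, adjusted p = 0.10), and Bax at 59.3, 69.1 and 67.7 CPM lay above wild type at 52.7, 59.0 and 53.02 CPM.

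**Figure D4:**
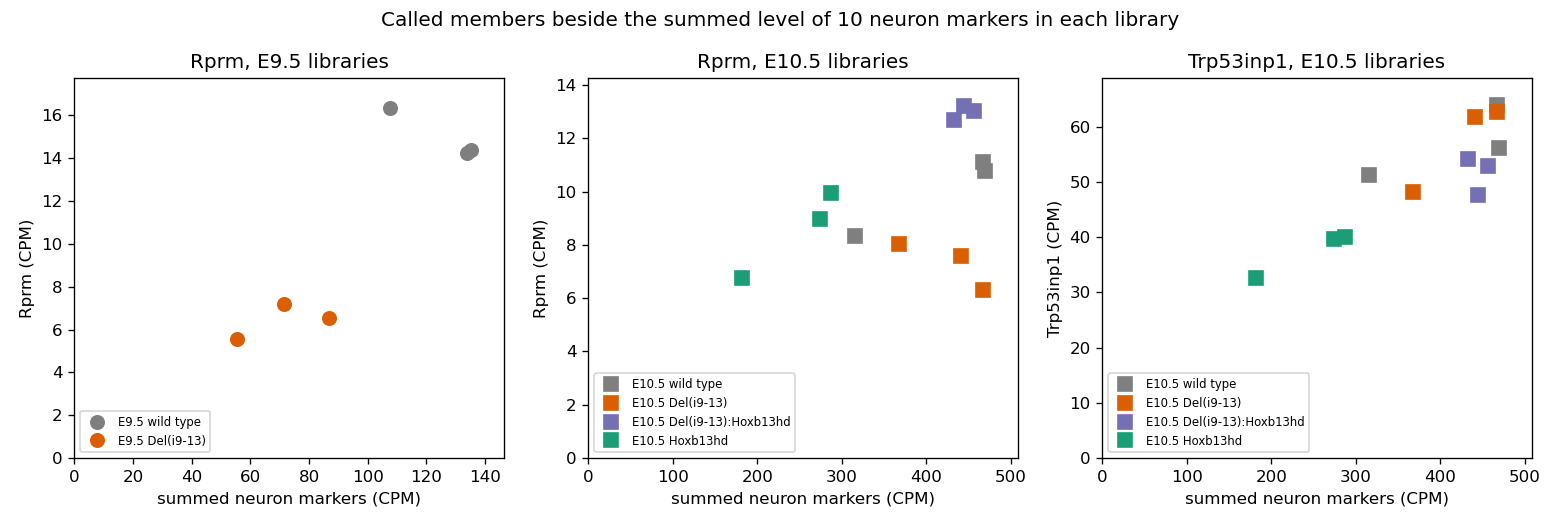
Rprm and Trp53inp1 in CPM (vertical axes, from 0) against the summed CPM of 10 neuron markers (horizontal axes, from 0) in each library, by group. E9.5 Del(i9-13) is low in both neuron markers and Rprm, Hoxb13hd is low in both neuron markers and Trp53inp1, and at E10.5 Del(i9-13) and Del(i9-13):Hoxb13hd differ in Rprm while their neuron markers overlap.

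Del(i9-13):Hoxb13hd against Hoxb13hd asked what the deletion did where both groups carry hd, with no wild type library in the contrast. Of the 10 members 0 were called by edgeR, and 0.959% of all genes were. At an unadjusted p under 0.05, which 15.2% of all genes passed, 3 members were higher, namely Rprm at 0.60 (95% interval 0.27 to 0.93, adjusted p = 0.076), Cdkn1a at 0.56 (0.19 to 0.92, adjusted p = 0.13) and Trp53inp1 at 0.46 (0.21 to 0.72, adjusted p = 0.075). Bax was lower, at -0.19 (adjusted p = 0.28). DESeq2 called 2, Trp53inp1 and Rprm, among 635 of 17322 genes, and limma on log2(FPKM + 1) called Rprm alone. The 10 neuron markers were all positive here (median 0.82, Stmn2 and Nhlh2 called). Markers of liver bud and visceral endoderm (219.8 to 290.4 against 19.8 to 91.4 CPM) and of head and forebrain (35.1 to 38.9 against 24.1 to 30.6 CPM, Lhx2 called) were higher in Del(i9-13):Hoxb13hd, and those of trunk mesoderm and tail bud were lower (255 to 262 against 270.1 to 321 CPM, 0 called). The part of these markers was not tested. Without Hoxb13hd replicate 1, Cdkn1a was called (log2 0.75, adjusted p = 0.043), where 412 of 17537 genes were called, against 165 with all libraries.

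Sesn2 in Del(i9-13) and in wild type lay below the groups that carry hd. It measured 16.1, 16.2 and 16.2 CPM in Del(i9-13):Hoxb13hd and 15.3, 16.5 and 16.7 CPM in Hoxb13hd, against 14.7, 11.3 and 11.4 CPM in Del(i9-13). Wild type was at 13.7, 15.2 and 13.7 CPM. All Del(i9-13) and all wild type libraries were below those of both groups that carry hd, and Del(i9-13) overlapped with wild type. Against wild type, Sesn2 was at log2 0.19 both in Del(i9-13):Hoxb13hd (adjusted p = 0.50) and in Hoxb13hd (adjusted p = 0.35). In Del(i9-13) against Del(i9-13):Hoxb13hd the log2 fold change of Sesn2 was -0.38 (95% interval -0.61 to -0.14, adjusted p = 0.11). It became a call without Del(i9-13) replicate 1 (-0.53, adjusted p = 0.0052). In that fit 1453 of 17497 genes were called, against 156 with all libraries. Zmat3 was at -0.32 (-0.60 to -0.03, adjusted p = 0.26) in the same comparison. Phlda3 stayed within -0.13 to 0.12 in all 7 comparisons of groups.

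The members did not move as a block across libraries. With each stage centred on its mean, log2 CPM of the 45 pairs of members over the 18 libraries had a positive Pearson r in 23 pairs and a negative r in 22, with a median of 0.02. The highest was 0.78, between the death genes Bbc3 and Bax, and the lowest -0.70, between Trp53inp1 and Bax. The points share libraries and scaling, and no test was made.

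The genes most like each called member were found in the same way among 13860 genes, again with no test. For Rprm they were Aacs (r = 0.89), Fads1 (0.88), Fads2 (0.88), Prdm12 (0.87) and Gdf11 (0.86). Of these, Aacs was called lower in E9.5 Del(i9-13) (log2 -0.61, adjusted p = 0.0041), as was Fads2 (-0.37, adjusted p = 0.027). There 0.362% of all genes were called. For Trp53inp1 they were Stx17 (0.92), Asb4 (0.91), Prkg1 (0.90), Fkbp14 (0.89) and Fkbp7 (0.89). The first 4 were called lower in Hoxb13hd against wild type, with log2 values from -0.71 (Prkg1, adjusted p = 0.016) to -0.35 (Stx17, adjusted p = 0.039). There 3.01% of all genes were called. Genes were picked for following the member over these same libraries, group differences included. Calls in the member's direction follow from that choice and are no separate evidence.

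Other genes of the pathway were read from 6 lists. In E9.5 Del(i9-13) against wild type, edgeR called 0 of 32 other p53 targets, 0 of 12 genes of p53 and its regulators, 0 of 21 Bcl2 family members and caspases, 0 of 11 other growth arrest genes, 0 of 25 proliferation genes and 0 of 15 genes of the integrated stress response. At an unadjusted p under 0.05 these lists held 0, 0, 1, 0, 2 and 3 higher and 2, 0, 0, 1, 2 and 1 lower genes, in that order, beside 11.7% of all genes in either direction. Among other p53 targets 8 were positive and 24 negative, with a median log2 of -0.05 against 0.00 over all genes. The 2 that were farthest from 0 were Pmaip1, which encodes the BH3-only protein Noxa (-0.59, adjusted p = 0.26), and the stress kinase gene Plk3 (-0.54, adjusted p = 0.24). In the other lists these were Prkdc (-0.31) and Hipk2 (-0.19) among the regulators, Hrk (0.23) and Bak1 (0.20) in the Bcl2 family, Cdkn2c (-0.31) and Gadd45g (-0.28) among arrest genes, Mki67 (-0.28) and Ccnb2 (0.19) among proliferation genes, and Trib3 (-0.71) and Slc7a11 (-0.38) in the stress response. Summed proliferation genes were at 7758 to 7915 CPM in wild type and 7604 to 7901 CPM in Del(i9-13), which overlapped. Trp53 itself was at 252 ± 11.1 CPM in E9.5 wild type and 262 ± 15.4 CPM in Del(i9-13).

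**Figure D5:**
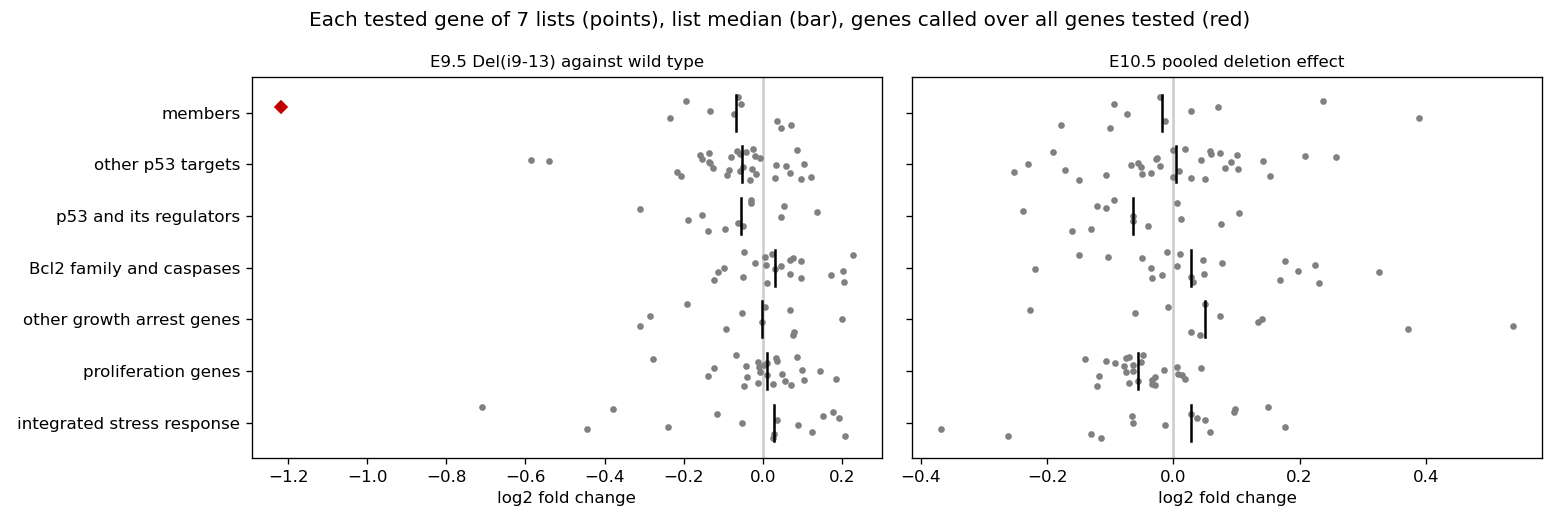
Log2 fold change (horizontal axis) of each tested gene in the 10 members and 6 further lists, for E9.5 Del(i9-13) against wild type and for the pooled deletion effect at E10.5, with the list median as a bar and calls in red. Rprm at E9.5 is the single call in these lists, and the medians of the 10 members are -0.07 and -0.02.

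For the pooled deletion at E10.5, edgeR again called 0 genes in each of the 6 lists. At an unadjusted p under 0.05, the other p53 targets held 1 higher and 3 lower genes, the Bcl2 family and caspases 4 higher and 1 lower, the other growth arrest genes 2 higher and 1 lower, p53 and its regulators 0 higher and 4 lower, the proliferation genes 0 higher and 2 lower, and the stress response 0 higher and 1 lower, beside 13.6% of all genes. Cdkn2c (0.54, adjusted p = 0.14) and Cdkn1c (0.37, adjusted p = 0.083), which encode the kinase inhibitors p18 and p57, were the arrest genes farthest from 0. In the other lists these were Ptprv (0.26) and Eda2r (-0.25), Prkdc (-0.24) and Atm (-0.16), Bik (0.33) and Bad (0.23), Mki67 (-0.14) and Aurka (-0.12), and Atf3 (-0.26) and Ddit3 (0.18), for other targets, regulators, Bcl2 family, proliferation and stress response in turn. Summed proliferation genes were at 8395 to 8637 CPM in wild type and 8389 to 8730 CPM in Hoxb13hd, and below all of these, at 7991 to 8165 and 8155 to 8287 CPM, in Del(i9-13) and Del(i9-13):Hoxb13hd. Of the 25 proliferation genes 20 had a negative and 5 a positive log2 value, with a median of -0.06 against 0.00 over all genes and 0 called.

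Single genes of these lists were called in the comparisons of single groups. Tigar, a p53 target that lowers glycolytic flux, fell in Del(i9-13) against wild type (log2 -0.48, adjusted p = 0.040) and against Del(i9-13):Hoxb13hd (-0.51, adjusted p = 0.022). It was the single called gene of the 32 other p53 targets in each, where 0.488% and 0.907% of all genes were called. Its level was 13.2 ± 0.49 CPM in E10.5 Del(i9-13), against 18.4 ± 1.82 CPM in wild type, 17.5 ± 1.181 CPM in Hoxb13hd and 18.8 ± 0.56 CPM in Del(i9-13):Hoxb13hd (SD, n = 3 each). Atr, a DNA damage kinase upstream of p53, fell in Del(i9-13):Hoxb13hd against wild type (-0.32, adjusted p = 0.043), 1 of 13 regulators beside 0.401% of all genes. Bmf, a BH3-only gene, rose in Del(i9-13):Hoxb13hd against Hoxb13hd (0.35, adjusted p = 0.049), 1 of 21 beside 0.959% of all genes.

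In Hoxb13hd against wild type, the p53 relative Trp63, a marker of surface epithelium, rose (log2 0.70, adjusted p = 0.024). Apaf1, the scaffold of the apoptosome, fell (-0.29, adjusted p = 0.037). The cyclin gene Ccnd3 rose (0.25, adjusted p = 0.033). These calls stand beside the 3.01% of all genes called there. Trp53 was at 97.0 ± 12.9 CPM in E10.5 wild type, 129 ± 7.30 CPM in Hoxb13hd, 86.3 ± 22.2 CPM in Del(i9-13) and 125 ± 13.6 CPM in Del(i9-13):Hoxb13hd, and was called in none of the 9 comparisons.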

How the data were processed

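RNA of headless mouse embryos was measured in 18 libraries. The deposited tables held read counts per gene and FPKM made by the authors. The submitters' processing notes name cutadapt 1.18, STAR 2.7.10a, the build mm10 and Cufflinks 2.2.1. The strand setting of the counting was not given in the sources used here. Groups came from the sample titles and 0 columns were left unassigned.

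Counts were fitted in R 4.3.3 with edgeR 4.0.16 (filterByExpr with minimum count 10 and total 15, TMM, robust quasi-likelihood), separately for the 6 E9.5 and 12 E10.5 libraries, and called at an adjusted p of 0.05 over all genes tested. All 10 members passed the filter in each fit. Alternatives used DESeq2 1.42.0, limma 3.58.1 on log2 FPKM with pseudocounts of 0.1 and 1, other filters and scaling, a replicate block, an Xist covariate and leaving out each library. The code was tested on simulated data. Replicates of a group differed beyond sampling noise.

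The members, lists and tests were chosen with earlier results of these data known. All members were named. From each list every called gene was named, apart from items not reported here, and otherwise the 2 genes with the largest change at 1 CPM or more in either group, given for the E9.5 and the pooled comparison. For each called member the 5 most alike genes were named.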

Additional observations from a re-analysis of the deposited data

How the results depend on the processing

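Of 1580 alternative values of the 90 member values, 1547 stayed on their side of the threshold, 12 lost and 21 gained a call, and 0 called values changed sign. Another 63 uncalled values, in 20 of the 90, changed sign. The count of called members at E9.5 went from 1 to 0 with limma on log2(FPKM + 0.1) without a filter, as did those for Hoxb13hd against wild type and, with both carrying the deletion, Del(i9-13) against Del(i9-13):Hoxb13hd. With DESeq2 it was 1 for Del(i9-13):Hoxb13hd against wild type, 3 for Hoxb13hd against wild type (Mdm2, Ccng1 and Trp53inp1), 2 for Del(i9-13):Hoxb13hd against Hoxb13hd, 2 for Del(i9-13) against Del(i9-13):Hoxb13hd (Rprm and Sesn2) and 1 for the interaction. With only the groups compared it was 1 for Del(i9-13):Hoxb13hd against Hoxb13hd (Trp53inp1) and 2 for Hoxb13hd against wild type. Without a filter it was 2 for the former and 1 for the interaction, and with limma on log2(FPKM + 1) 1 for each. Leaving out each library gave 0 to 2 for Hoxb13hd against wild type (Bax joined without Hoxb13hd replicate 1), 0 to 1 for Del(i9-13):Hoxb13hd against Hoxb13hd, 0 to 2 for Del(i9-13) against Del(i9-13):Hoxb13hd and 0 to 1 for the interaction. The causes were not tested.

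Same-numbered replicates had a correlation of deviations above 0.1 in 1 of 3 pairs at E9.5 and 3 of 18 at E10.5. The values ran from 0.003 to 0.14 at E9.5 and from -0.23 to 0.16 at E10.5. With 3 libraries per group they cannot settle whether replicate numbers pair the samples. With the replicate block 1 member, Rprm, was called for Del(i9-13):Hoxb13hd against Hoxb13hd (log2 0.62, adjusted p = 0.040) and for the interaction (1.08, adjusted p = 0.025), and the block changed no other member's call.

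Counts over all genes moved more. Leaving out single libraries gave 40 to 53 for E9.5 (58 with all), 40 to 285 for E10.5 Del(i9-13) against wild type (84), 14 to 41 for Del(i9-13):Hoxb13hd (69), 51 to 676 for Hoxb13hd (517), 36 to 412 for Del(i9-13):Hoxb13hd against Hoxb13hd (165), 58 to 1453 for Del(i9-13) against Del(i9-13):Hoxb13hd (156), 21 to 353 for the pooled deletion (86), 40 to 174 for the interaction (90) and 3 to 24 between stages (8). Other settings gave 2 to 537, 47 to 263, 21 to 316, 90 to 1194, 48 to 635, 65 to 682, 33 to 382, 50 to 287 and 2 to 72, in that order.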
